A study of Mus musculus with 4 samples.

Results

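Eph receptors are receptor tyrosine kinases, and ephrins are the membrane-bound ligands that they meet on neighbouring cells. A set of 9 of these genes were examined in the pregnant mouse uterus: the receptor genes Ephb4, Ephb2, Ephb3, Epha2 and Epha4 and the ligand genes Efnb2, Efnb1, Efna1 and Efna5. They were taken by name from the count tables, so 9 of 55421 listed genes, and 9 of the 22 Eph and ephrin genes of the mouse, make up the set. All 9 passed the filter on low counts.

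The study compared whole uteri at E18.5, close to the end of pregnancy, from mice with and without the class Ib MHC antigen Qa-2, the proposed mouse counterpart of human HLA-G. Wildtype (WT) mice were C57BL/6J. Mice without Qa-2 (Qa-2-) were of the strain that the labels write as B6.Cg-H2b3/FlaCmwJ and the study calls B6.K1, an H2 congenic strain, so the groups differ in a stretch of chromosome 17 and not in 1 gene alone. Each group had 2 libraries, each from the uterus of 1 mouse mated within its own strain, and the p-values measure the spread between these mice only. As a check of the labels, H2-Q7, a Qa-2 gene, had 6318 and 1251 counts in the WT libraries and 4 and 2 in the Qa-2- libraries, and H2-Q6 had 4204 and 1192 against 3 and 3. H2-Q genes resemble each other closely, and pairs that matched several of them were not counted. The libraries held 41041299 and 39399991 counts in WT and 34922010 and 33286390 in Qa-2-. Values are CPM, the share of a library's counts on a per-million scale, on library sizes scaled by TMM, and 3 counts, the floor of what can be told from 0 by counting error alone, come to 0.0749 to 0.086 CPM.

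Signals run both ways in this family, into the cell with the receptor and back into the cell with the ligand, and they move cells apart or hold them together at tissue borders. Receptors and ligands fall into an A class, with lipid-anchored ligands, and a B class, with ligands that cross the membrane. In blood vessels, ephrin-B2 marks arterial and EphB4 venous endothelium, and vessels do not form normally in embryos that lack either. In epithelia, EphA2, EphB2 and EphB3 take part in cell sorting and in keeping cells at their place.

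The upstream sequences of the 3 members with the largest fold changes, Ephb4, Efnb2 and Ephb2, are shown because the first 2 were higher in both WT libraries and the third in both Qa-2- libraries. Each is the 250 bases before the RefSeq transcription start, 5′ to 3′ on the strand of the gene in GRCm38.p6. Capitals mark CCAAT, the letters of the CCAAT box, and GGGCGG, the letters of the GC box, on either strand (ATTGG and CCGCCC on the other strand). The windows are chr5:137349859-137350108 on the plus strand for Ephb4, chr8:8661243-8661492 on the minus strand for Efnb2 and chr4:136836013-136836262 on the minus strand for Ephb2.
Ephb4: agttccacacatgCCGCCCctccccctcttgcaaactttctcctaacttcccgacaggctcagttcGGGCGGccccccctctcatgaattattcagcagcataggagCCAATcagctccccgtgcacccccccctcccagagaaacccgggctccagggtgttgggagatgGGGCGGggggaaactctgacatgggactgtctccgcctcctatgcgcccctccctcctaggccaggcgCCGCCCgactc
Efnb2: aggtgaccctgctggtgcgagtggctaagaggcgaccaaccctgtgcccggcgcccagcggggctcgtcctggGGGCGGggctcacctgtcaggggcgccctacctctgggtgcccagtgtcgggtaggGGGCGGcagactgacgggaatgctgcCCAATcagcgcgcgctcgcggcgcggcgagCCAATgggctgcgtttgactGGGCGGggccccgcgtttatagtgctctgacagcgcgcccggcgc
Ephb2: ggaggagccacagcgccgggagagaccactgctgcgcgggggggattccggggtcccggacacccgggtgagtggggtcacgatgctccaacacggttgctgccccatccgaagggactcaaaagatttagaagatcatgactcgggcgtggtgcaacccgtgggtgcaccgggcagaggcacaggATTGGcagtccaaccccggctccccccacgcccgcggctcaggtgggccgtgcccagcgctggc

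CCAAT stood at -143 from the start of Ephb4, at -95 and -65 from that of Efnb2 and, read on the other strand, at -64 from that of Ephb2. GGGCGG was found 4 times before Ephb4, 3 times before Efnb2 and 0 times before Ephb2. The windows held 12 CpG for Ephb4, 27 for Efnb2 and 20 for Ephb2, with a GC content of 64.0%, 72.0% and 68.4%, against medians of 6 CpG and 52.4% GC over 32851 mouse promoters. All 9 members matched the RefSeq table, with 10 promoters since Efna1 has a pair of starts. Of these 10, GGGCGG was in 8 and CCAAT in 5, while 32.7% and 33.8% of all promoters hold them. TATAAA was in 1 of the 10, that of Efnb2, as TTTATA on the other strand, against 12.4% of all. Another 3 motifs were searched on both strands: TGGGAA, in 2 of 10 against 21.6% of all, GGAA, which TGGGAA contains, in 9 of 10 against 93.4%, and AGATAA, in 0 of 10 against 9.99%. These are matches of letters and not binding sites.

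No member differed between WT and Qa-2- uteri past an adjusted p of 0.05 in edgeR's quasi-likelihood test, nor did any other gene (0 of 14492 genes tested, 0.0%). At an unadjusted p under 0.05, 2 of 9 members, Ephb4 and Efnb2, were higher in WT, against a background of 8.09% of all genes, and 0 of 9 were higher in Qa-2-, against 7.09%. DESeq2 called 0 of the 9, against 4.83% of all genes. Both WT libraries lay above both Qa-2- libraries for 2 members (Ephb4 and Efnb2), as for 25.4% of all genes. The reverse order held for 2 members (Ephb2 and Epha4), as for 24.5% of all genes. The groups of the other 5 members overlapped. On the log2 scale, WT against Qa-2-, the median difference was -0.09 over the 9 members and 0.01 over all genes.

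**Figure D1:**
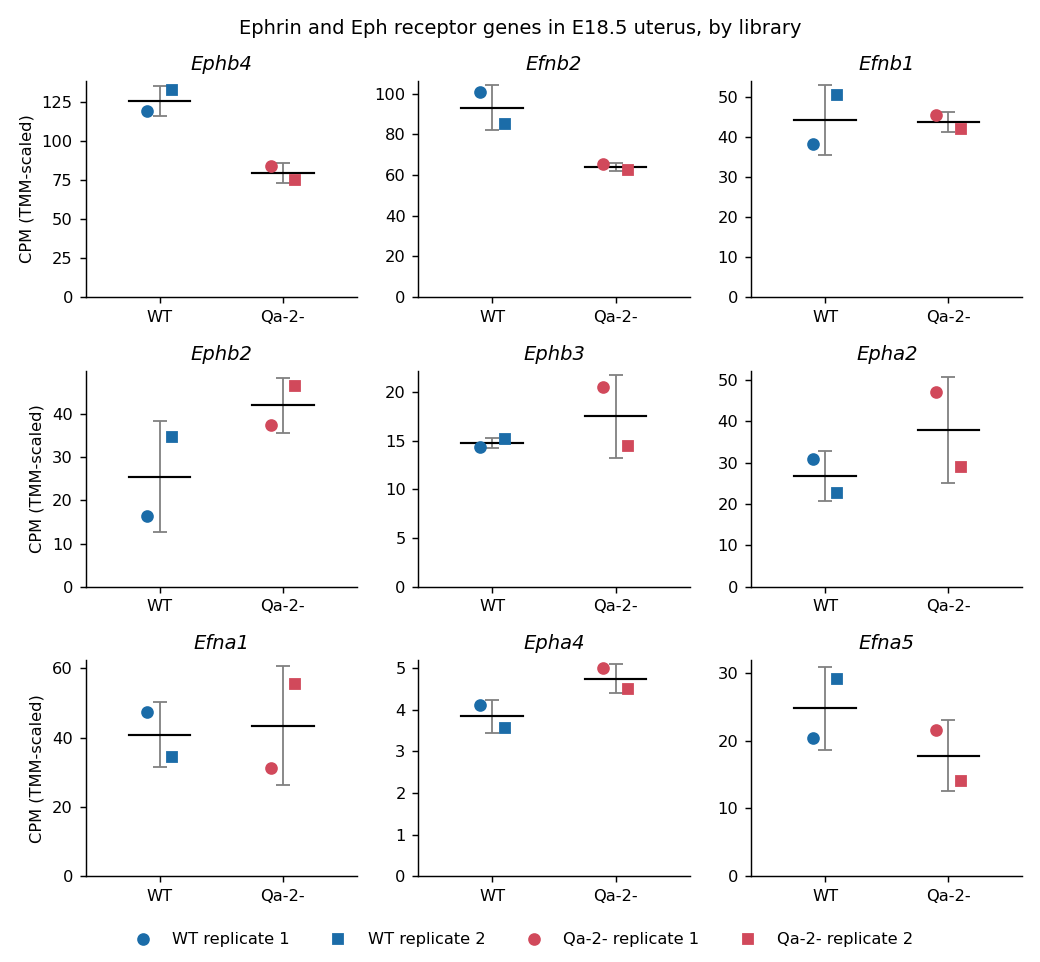
Level of each of the 9 listed genes by library, in CPM on TMM-scaled library sizes with each axis from 0, for 2 WT and 2 Qa-2- libraries. Lines are means and bars are SD (n = 2). Ephb4 and Efnb2 are higher in both WT libraries, Ephb2 and Epha4 are higher in both Qa-2- libraries, and the groups of the other 5 genes overlap.

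Ephb4 (ENSMUSG00000029710, chr5:137350109-137378669, plus strand of GRCm38) encodes the receptor that marks venous endothelium. It had 4767 and 4992 counts in the WT libraries, which are 119 and 133 CPM, and 2976 and 2627 counts in the Qa-2- libraries, which are 84.0 and 75.3 CPM. Both WT libraries were thus above both Qa-2- libraries, with means of 126 ± 9.63 against 79.7 ± 6.20 CPM (SD, n = 2), and the gap between the groups exceeded the spread within each. Expressed as log2 of WT against Qa-2-, the fold change was 0.66 ± 0.17 (SE) with an unadjusted p of 0.0097 and an adjusted p of 0.26 in edgeR. The Qa-2- level was 0.633 times that of WT. Over all alternatives run, the adjusted p ran from 0.0613, with DESeq2, to 0.83. Ephb4 is also in a printed list of genes that the study picked on these libraries for being higher in WT, so its direction is not independent evidence.

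Efnb2 (ENSMUSG00000001300, chr8:8617434-8661242, minus strand), the arterial ligand of EphB4, had 101 and 85.2 CPM in WT and 65.4 and 62.5 CPM in Qa-2-, from 4042, 3208, 2318 and 2182 counts. As with its receptor, both WT libraries were above both Qa-2- libraries. The log2 fold change was 0.54 ± 0.16 (SE), with an unadjusted p of 0.020 and an adjusted p of 0.28 in edgeR, and the Qa-2- level was 0.688 times that of WT. The adjusted p ran from 0.119 to 0.83 over the alternatives. The lowest fold change with 1 library left out was 0.39, without WT replicate 1.

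Set against each other per length of their exons, which are 4640 bases for Ephb4 and 6855 for Efnb2, Ephb4 was the higher of the pair in all 4 libraries. The ratio of Ephb4 to Efnb2 was 1.74 and 2.30 in the WT libraries and 1.90 and 1.78 in the Qa-2- libraries. The Qa-2- ratios lay between the WT ratios, so the groups overlapped. On the log2 scale the ratio was 1.001 ± 0.28 in WT and 0.88 ± 0.07 in Qa-2- (SD, n = 2), a difference of 0.12 with a two-sided exact permutation p of 1.0, where 0.333 is the smallest that 2 against 2 can give. The difference was 0.32 without WT replicate 1 and -0.08 without WT replicate 2, so its sign rested on single libraries. A balance of venous to arterial marker that differs between the strains was therefore not detectable with these libraries.

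In whole tissue, fewer cells of a type and less RNA per cell cannot be told apart. Of 10 general endothelial markers, 9 were higher in WT (median log2 fold change 0.65), with both WT libraries above both Qa-2- libraries for those 9 (25.4% of all genes), 7 at an unadjusted p under 0.05 (8.09% of all genes) and 0 past an adjusted p of 0.05 in edgeR (3 with DESeq2, which called 4.83% of all genes). Examples are Icam2 at 1.03, Erg, an endothelial transcription factor, at 0.998 and Vwf, von Willebrand factor, at 0.86, and at the low end Plvap at 0.59, Clec14a at 0.50 and Cd34 at -0.32. None of the 10 was at 0 in any library, and their summed level was 997 and 1336 CPM in WT and 1022 and 907 CPM in Qa-2-, where the groups overlap. Cd34 gave 299.8 and 483 CPM of the WT sums and 526 and 453 CPM of the Qa-2- sums. Without Cd34 the sums were 697 and 854 CPM in WT and 496 and 454 CPM in Qa-2-, which do not overlap. The part of endothelial content in the values of Ephb4 and Efnb2 was not tested.

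The level of each gene over the geometric mean of these 10 markers was computed after its values had been seen. For Ephb4 this log2 ratio was 0.84 and 0.71 in WT and 0.80 and 0.68 in Qa-2-, a difference of 0.03 with overlapping groups (two-sided exact permutation p = 0.667). Efnb2 had 0.60 and 0.07 in WT and 0.44 and 0.41 in Qa-2-, a difference of -0.09 with the WT libraries on either side of the Qa-2- libraries (p = 1.0 in the same exact test). On this scale neither gene separated the groups. Efna1 and Efna5 overlapped too, while Efnb1, Ephb2, Ephb3, Epha2 and Epha4 were higher in both Qa-2- libraries, with differences of -0.62 to -1.44 over a denominator that was itself higher in WT (two-sided exact permutation p = 0.333 for each, the smallest possible).

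**Figure D2:**
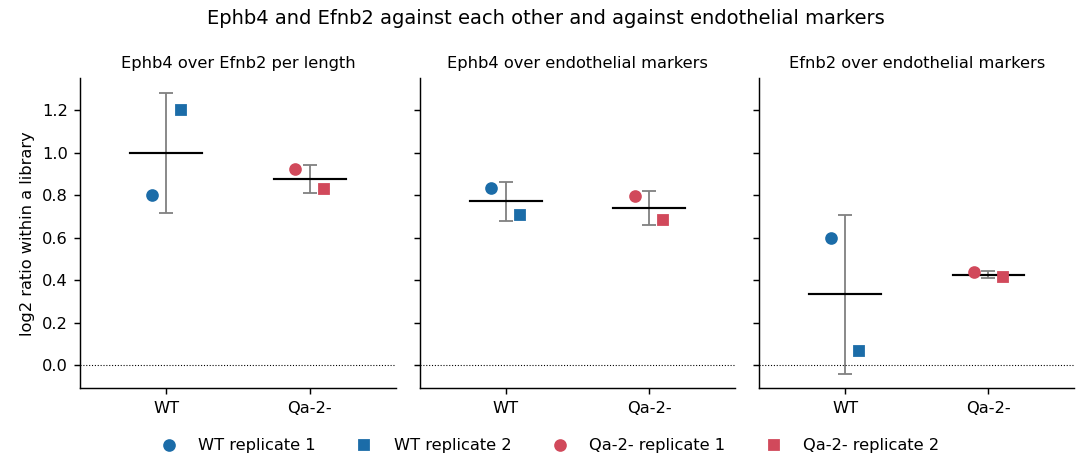
Log2 ratio within a library of Ephb4 to Efnb2 per exonic length, and of Ephb4 and of Efnb2 to the geometric mean of 10 endothelial markers, for 2 WT and 2 Qa-2- libraries. Lines are means and bars are SD (n = 2), and in all 3 panels the groups overlap.

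Of 12 arterial markers, 10 were higher in WT, in each case in both libraries (25.4% of all genes), and 8 had an unadjusted p under 0.05 (8.09% of all genes). Their median log2 fold change was 0.84, and 0 passed an adjusted p of 0.05 in edgeR. DESeq2 called 5 of the 12, against 4.83% of all genes. The highest were Unc5b at 1.48, Gja5 at 1.44 and Gja4 at 1.19, of which the last 2 encode gap junction proteins of arteries, and the lowest were Acvrl1 at 0.07, Sox17 at -0.03 and Nrp1 at -0.11. The list shares 5 genes with the list that the study picked on these libraries, and the other 7 had a median of 0.51, with 5 higher in WT, 3 at an unadjusted p under 0.05 (8.09% of all genes) and 0 called by DESeq2. Among those 3 is Notch4 at 0.64, which lies at chr17:34564268-34588503, close to H2-Q7 at chr17:35439155-35443773. Whether it lies within the congenic stretch was not examined here. Of 7 venous markers, 6 were higher in WT, 3 of them in both libraries (25.4% of all genes). At an unadjusted p under 0.05 there were 2 (8.09% of all genes), with 0 called by edgeR and 1 by DESeq2 (4.83% of all genes). The groups of 4 of the 7 overlapped, and the median was 0.26 (0.53 without WT replicate 1, 0.12 without Qa-2- replicate 2). Flt4 at 1.72, also a gene of lymphatic vessels and of the study's list, Nrp2 at 0.97 and Selp at 0.60 were the highest, and Ackr3 at 0.23, Aplnr at 0.03 and Ackr1 at -0.26 the lowest. Without Flt4, 5 of 6 were higher in WT, 2 of them in both libraries (25.4% of all genes) and 1 at an unadjusted p under 0.05 (8.09%). Their median was 0.24, and DESeq2 called 0 of the 6.

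**Figure D3:**
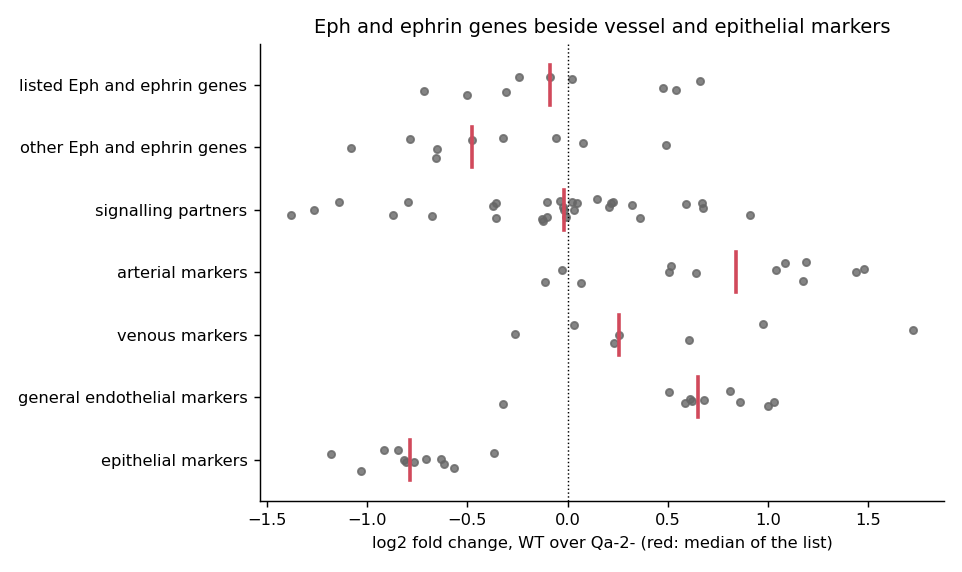
Log2 fold change (WT against Qa-2-) for each gene kept, as a point, in the listed Eph and ephrin genes, the rest of the family, their signalling partners and 4 marker lists, with the median of each list as a red line. The points of the listed genes lie on both sides of 0 around a median of -0.09, those of endothelial markers mostly above 0 and those of epithelial markers all below 0.

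The other B-class genes did not share the order of Ephb4 and Efnb2. Efnb1 (ENSMUSG00000031217, chrX:99136130-99148991, plus strand), an X-linked ligand of EphB receptors, had 38.1 and 50.5 CPM in WT and 45.5 and 42.0 CPM in Qa-2-. The WT libraries lay on either side of the Qa-2- libraries, and the log2 fold change was 0.02 ± 0.19 (SE, adjusted p = 0.97 in edgeR). It was -0.20 without WT replicate 2, -0.04 without Qa-2- replicate 2 and 0.18 without WT replicate 1.

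Ephb2 (ENSMUSG00000028664, chr4:136647539-136835988, minus strand), a receptor for B-class ligands known from axon guidance and from the sorting of intestinal epithelium, had 657 and 1301 counts in WT and 1328 and 1618 in Qa-2-. In CPM these were 16.4 and 34.6 in WT and 37.5 and 46.4 in Qa-2-, so WT replicate 1 stood well below the other 3 libraries, and WT replicate 2 was close to Qa-2- replicate 1. Its log2 fold change was -0.72 ± 0.37 (SE), the largest in size among the members, with an adjusted p of 0.42 in edgeR. It was -0.30 without WT replicate 1 and -1.36 without WT replicate 2. The mean level was 1.65 times as high in Qa-2-, and the WT mean of 25.5 ± 12.8 CPM (SD, n = 2) shows the spread behind it.

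Ephb3 (ENSMUSG00000005958, chr16:21204755-21223305, plus strand), which acts beside EphB2 in intestinal crypts, had 14.4 and 15.1 CPM in WT and 20.5 and 14.5 CPM in Qa-2-. Only Qa-2- replicate 1 stood apart among the 4, and the log2 fold change of -0.25 ± 0.23 (SE, adjusted p = 0.64 in edgeR) became 0.02 without it and -0.48 without Qa-2- replicate 2.

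Among the A-class members, Epha2 (ENSMUSG00000006445, chr4:141301240-141329384, plus strand), a receptor of epithelial and endothelial cells, had 31.0 and 22.6 CPM in WT and 46.9 and 28.9 CPM in Qa-2-. Qa-2- replicate 1 was the highest library and WT replicate 2 the lowest, and the groups overlapped. The log2 fold change was -0.50 ± 0.30 (SE, adjusted p = 0.46 in edgeR) and ran from -0.82 without Qa-2- replicate 2 to -0.11 without Qa-2- replicate 1. Its main ligand gene Efna1 (ENSMUSG00000027954, chr3:89271733-89281142, minus strand) had 47.5 and 34.4 CPM in WT and 31.3 and 55.6 CPM in Qa-2-. Both Efna1 extremes were Qa-2- libraries, and the fold change of -0.09 ± 0.33 (SE, adjusted p = 0.91) became 0.13 without WT replicate 2 and 0.38 without Qa-2- replicate 2, and -0.37 and -0.45 without replicate 1 of WT and of Qa-2-. Epha2 and Efna1 did not follow each other from library to library: Epha2 was highest in Qa-2- replicate 1, where Efna1 was lowest.

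Epha4 (ENSMUSG00000026235, chr1:77367185-77515088, minus strand), a receptor that binds ligands of both classes, was the least abundant member, with 165 and 134 counts in WT and 177 and 157 in Qa-2-. These are 4.12 and 3.56 CPM in WT and 4.998 and 4.498 CPM in Qa-2-. Both Qa-2- libraries were above both WT libraries, by a log2 fold change of -0.31 ± 0.28 (SE, adjusted p = 0.63 in edgeR). Efna5 (ENSMUSG00000048915, chr17:62604184-62881317, minus strand), a ligand known from the map of the retina, had 20.4 and 29.1 CPM in WT and 21.5 and 14.1 CPM in Qa-2-. Its groups overlapped through WT replicate 1, and its fold change was 0.48 ± 0.29 (SE, adjusted p = 0.47), or 0.20 without WT replicate 2, 0.20 without Qa-2- replicate 2 and 0.81 without Qa-2- replicate 1. Efna5 lies 27.16 Mb from H2-Q7 on the chromosome that carries the congenic stretch, and it was the sole member on it. Whether it lies within that stretch was not examined here.

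Per length of exon, in TPM (CPM divided by exonic length and rescaled to a common total) as mean ± SD over the 4 libraries, Efna1 at 68.3 ± 17.96 and Ephb4 at 65.3 ± 15.0 were the most abundant genes of the family. They did not differ beyond their spread, with Efna1 above Ephb4 in 2 of 4 libraries. Efnb1 at 38.0 ± 5.86 and Efnb2 at 33.7 ± 5.61 came next, below Ephb4 in every library but with ranges that overlap each other. Among the other members, Epha2 at 20.8 ± 7.74, Efna5 at 15.7 ± 4.50, Ephb2 at 8.07 ± 3.28 and Ephb3 at 7.28 ± 1.75 followed, and Epha4 at 1.59 ± 0.31 was last of the 9. In the whole family Epha4 stood at rank 15 of 22, and the non-members Epha1 at 22.9 ± 11.3, Efna4 at 16.4 ± 4.54 and Ephb6 at 13.6 ± 4.51 lay between Efnb2 and Ephb2 by this mean. The place of Epha1 differed by group, with 17.97 and 9.36 TPM in WT, below Efnb2 in both libraries, and 31.1 and 33.3 TPM in Qa-2-, above Efnb2 in both. Between neighbours in the order of all 22 family genes, ranges were separate only at Ephb4 over Efnb1, Efna2 over Ephb1 and Epha7 over Epha6.

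**Figure D4:**
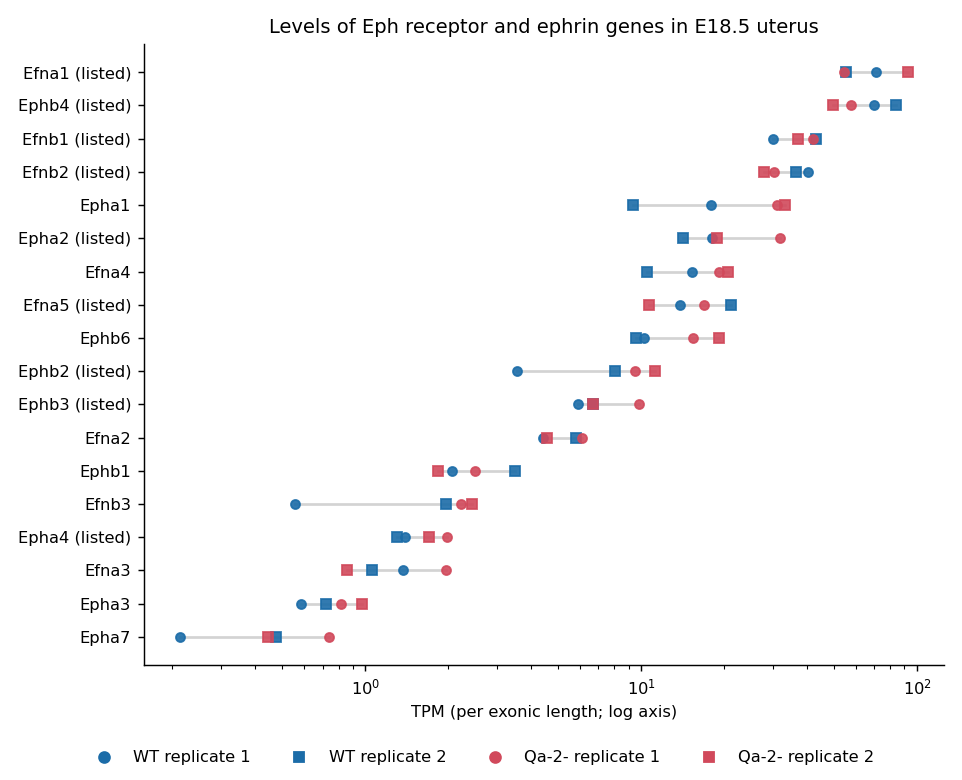
TPM, on a log axis, of the 18 Eph and ephrin genes that passed the filter, 1 point per library and genes in the order of the mean over 4 libraries. Efna1 and Ephb4 are the most abundant and overlap, and Epha7 is the least abundant of those kept.

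Summed by class, the 5 EphB receptor genes had 91.7 and 112 TPM in WT and 94.8 and 88.4 TPM in Qa-2-. That sum overlapped between the groups while its composition did not: Ephb4 was 76.2% and 75.1% of it in WT and 60.8% and 56.0% in Qa-2-. Efnb2 was 56.7% and 44.9% of the sum of 3 ephrin-B genes in WT and 40.8% and 41.3% in Qa-2-. The 9 EphA receptor genes came to 38.2 and 26.1 TPM in WT and 66.6 and 55.4 TPM in Qa-2-, with both Qa-2- libraries higher. For the 5 ephrin-A genes, 106 and 93.7 TPM in WT and 98.8 and 129.5 TPM in Qa-2- overlapped. No test was run on these sums and shares.

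Of the 13 other Eph and ephrin genes, 9 passed the filter. Epha5 (1 count in all), Epha8 (1), Epha10 (3) and Epha6 (6, all in Qa-2- replicate 2) did not. Of the 9 kept, 7 were lower in WT and 2 higher, 0 passed an adjusted p of 0.05 with edgeR or DESeq2, and both Qa-2- libraries were above both WT libraries for 5 (Epha1, Epha3, Ephb6, Efna4 and Efnb3), where 24.5% of all genes have that order. Their median log2 fold change was -0.48, or -0.25 without WT replicate 1.

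Epha1, the first Eph receptor described and one of epithelia, had the largest fold change of the family. It had 25.9 and 12.5 CPM in WT and 38.3 and 42.8 CPM in Qa-2-, a log2 fold change of -1.08 ± 0.36 (SE, unadjusted p = 0.029, adjusted p = 0.30 in edgeR), which was -1.72 without WT replicate 1 and -0.65 without WT replicate 2. Ephb6, a receptor whose kinase domain is inactive, had 14.2 and 12.4 CPM in WT and 18.2 and 23.7 CPM in Qa-2-, at -0.66 ± 0.21 (SE, unadjusted p = 0.026, adjusted p = 0.29). Both were thus higher in each Qa-2- library than in either WT library. The fold changes of most others moved with a single WT library. Efnb3 was at -0.79, or -0.19 without WT replicate 1 and -1.88 without WT replicate 2. Epha7 was at -0.65, or -0.25 and -1.26 without the same libraries and -0.28 without Qa-2- replicate 1. Efna4 was at -0.48, or -0.86 without WT replicate 1 and -0.19 without WT replicate 2. Ephb1 was at 0.49, or 0.75 and 0.13 without those libraries and 0.31 without Qa-2- replicate 2, and Epha3 was at -0.33, or -0.16 without Qa-2- replicate 2. Efna2 at 0.08 and Efna3 at -0.06 changed sign with single libraries left out.

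**Figure D5:**
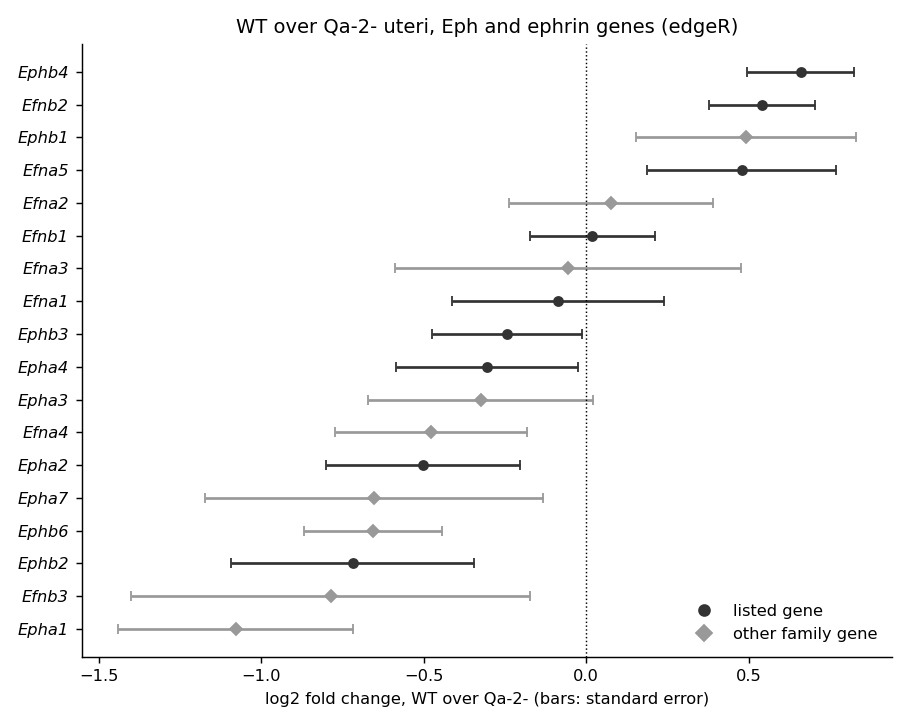
Log2 fold change (WT against Qa-2-) from edgeR with its standard error as a bar, for the 9 listed genes (dark circles) and the 9 other family genes kept (grey diamonds). Ephb4, Efnb2, Ephb1 and Efna5 lie farthest to the right, Epha1 lies farthest to the left at -1.08, and 0 of the 18 passed an adjusted p of 0.05.

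Epithelial markers stood on the same side as Epha1, Ephb6 and Ephb2. All 12 of the list were lower in WT (median log2 fold change -0.79, or -1.24 without WT replicate 1 and -0.41 without WT replicate 2), with both Qa-2- libraries above both WT libraries for 7 (24.5% of all genes), 2 at an unadjusted p under 0.05 (7.09% of all genes) and 0 past an adjusted p of 0.05 in edgeR. DESeq2 called 1 of the 12, against 4.83% of all genes. Foxa2, a factor of uterine glands, was at -1.18, Ehf at -1.03 and Cdh1, E-cadherin, at -0.92, and Krt18 at -0.62, Krt7 at -0.57 and Cldn3 at -0.37 were the smallest. Foxa2 lay near the filter, with 0.52 and 0.64 CPM in WT and 1.30 and 1.35 CPM in Qa-2-. It passed through the Qa-2- libraries alone, where it is high, and is counted among the 7 and the 2 above. The summed level was 3304 and 1980 CPM in WT and 4319 and 4403 CPM in Qa-2-, and 0 of the 12 were at 0. The part of epithelial content in the values of these receptors was not tested. Over the geometric mean of these markers, the log2 ratio of Ephb6 was -3.13 and -2.55 in WT and -3.05 and -2.96 in Qa-2-, with overlapping groups. Ephb2 had -2.92 and -1.07 in WT against -2.01 and -1.99 in Qa-2-, so its WT libraries lay on either side. Epha1 had -2.26 and -2.53 in WT and -1.97 and -2.10 in Qa-2-, with both Qa-2- libraries higher (two-sided exact permutation p = 0.333, the smallest possible). Its difference was -0.36 on this scale, beside a log2 fold change of -1.08 in CPM. Of the other members, Ephb3, Epha2 and Epha4 overlapped. Ephb4, Efnb2, Efnb1, Efna1 and Efna5 were higher in both WT libraries, with differences of 0.76 to 1.47 over a denominator that was itself higher in Qa-2- (two-sided exact permutation p = 0.333 for each). These ratios too were computed after the values had been seen.

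Of 30 genes whose products work with Eph receptors or ephrins inside the cell or at its surface, all passed the filter, 13 were higher in WT and 17 lower, and the median log2 fold change was -0.02. None passed an adjusted p of 0.05 in edgeR. At an unadjusted p under 0.05, 3 were higher in WT, against 8.09% of all genes, and 5 lower, against 7.09%. DESeq2 called 4, against 4.83% of all genes. Both WT libraries were higher for 7 and both Qa-2- libraries for 10, against 25.4% and 24.5% of all genes.

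Sh2d3c, an adaptor that binds Eph receptors, had 26.3 and 26.4 CPM in WT and 13.1 and 14.9 CPM in Qa-2-, a log2 fold change of 0.91 ± 0.17 (SE, adjusted p = 0.25 in edgeR and 0.0103 in DESeq2). Its WT libraries lay very close to each other and well above Qa-2-. Arhgef15, an exchange factor of the ephexin family in vascular cells, was at 0.68 (0.44 without WT replicate 2), and Rgs3, which can bind ephrin-B tails, at 0.67. In the other direction Tiam1, an exchange factor for Rac, had 34.3 and 22.7 CPM in WT and 76.4 and 60.9 CPM in Qa-2-, a log2 fold change of -1.27 ± 0.26 (SE, adjusted p = 0.25 in edgeR and 0.0031 in DESeq2). Grip1, a scaffold of ephrin-B tails, was at -1.38 (adjusted p = 0.28 in edgeR and 0.0475 in DESeq2) and Ngef, the exchange factor ephexin 1, at -1.14 (-1.79 without WT replicate 1 and -0.71 without WT replicate 2). The fourth gene that DESeq2 called was Ptpn13, a phosphatase that acts on ephrin-B, at -0.79 (adjusted p = 0.25 in edgeR and 0.0107 in DESeq2), named after its values were seen. The highest adjusted p of these genes over all alternatives was 0.83.

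Of the markers of other tissue parts, 0 passed an adjusted p of 0.05 in edgeR, and the DESeq2 calls below stand beside 4.83% of all genes. Their summed levels were as follows. Summed smooth muscle markers ran from 26370 to 43790 CPM in WT and from 12450 to 23080 in Qa-2- (median log2 fold change 0.99, 7 of 8 higher in WT, 2 called by DESeq2), while the sums of stromal markers, from 10690 to 18710 and from 10050 to 18600, overlapped. Of the 8 stromal markers, 5 were higher in WT, 3 of them in both libraries (25.4% of all genes). Another 2 were higher in both Qa-2- libraries (24.5% of all genes), and DESeq2 called 2 of the 8 (4.83% of all genes). Col1a1 held much of that sum, with 5484 and 14350 CPM in WT and 15180 and 7414 CPM in Qa-2-. Mesothelial markers summed to 123 and 133 CPM in WT and 104 and 58.0 in Qa-2- (median 2.29, 4 of 4 higher in WT, 2 called by DESeq2). Of these, Lrrn4 passed the filter through the WT libraries alone, with 4.84 and 2.34 CPM in WT and 0.25 and 0.14 in Qa-2-. Wt1, which held much of the sum, overlapped, with 63.5 and 83.1 CPM in WT and 83.1 and 46.7 in Qa-2-. Blood markers summed to 332 and 644 against 103 and 68.9 (median 2.41, 3 of 3 kept higher in WT and called by DESeq2), and nerve markers to 50.4 and 149 against 201 and 181. The sums of smooth muscle, mesothelial, blood and nerve markers did not overlap between the groups. Of 8 trophoblast markers, Gcm1 and Hand1 were at 0 in every library, and the sum was 1.10 and 24.6 CPM in WT and 3.90 and 1.23 in Qa-2-, which overlap. Yolk sac markers stood at 483 CPM in Qa-2- replicate 1 and at 5.67 to 43.4 in the other 3 libraries, and Ephb3, Epha2 and Epha4 were also highest in that library. The part of these contents in the members' values was not tested.

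By the Euclidean distance of centred log2 CPM over the 4 libraries, among genes of mean CPM from 0.5 to 2 times that of the member, the patterns most like Ephb4 were those of Prdx4 (0.0798), Flot1 (0.0837) and Rnf130 (0.0966), of 3250 candidates. For Efnb2 they were Akirin1 (0.0121), Rit1 (0.0156) and Ndufa1 (0.0173), of 4049. Within a distance of 0.2 lay 44 genes for Ephb4 and 78 for Efnb2. With 4 libraries such likeness is common, and the distances are a description.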

How the data were processed

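Uterine poly(A) RNA from 2 WT and 2 Qa-2- mice at E18.5 was sequenced in pairs by the authors, aligned with STAR 2.7.3a to GRCm38 and counted with featureCounts 2.0.0 by exon and strand. Pairs that matched several places or genes, or had a mapping quality under 3, were not counted. The deposited values are raw counts per gene for each library, and no replicates were pooled. No member shared exonic bases with another gene on its strand. Gene symbols came from GENCODE M21, which held 55240 of the 55421 IDs.

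From the counts, CPM, TPM (length from the union of exons) and log2 fold changes of WT over Qa-2- were computed. Genes that reached 1 CPM in 2 or more libraries (14492) entered edgeR 4.0.16 (TMM, quasi-likelihood, group as the only term), with Benjamini-Hochberg adjustment over all of them. SE is the fold change over the square root of F. The study states the filter and no test, and its own count of genes kept differs from the number here, for a reason not examined. Alternatives were DESeq2 1.42.0, other scalings and filters, a replicate block and leaving out each library. A crossed pairing was added after the data had been seen. The fit was tested on simulated data. Libraries of a group differed beyond counting noise, so none was a duplicate.

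Named genes are all Eph and ephrin genes, the 3 highest and 3 lowest fold changes of each other list described, and the 3 nearest patterns. Ptpn13 and Notch4 are named besides. For lists of other cell types outside vessel and epithelium, the sums stand in place of names. Members and lists were chosen with earlier results of these data known. The floor of 3 counts covers counting error only, while SD and SE hold the spread between mice.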

Additional observations from a re-analysis of the deposited data

How the results depend on the processing

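Members called stayed at 0 under every alternative, as did the rest of the family. Over all genes, the calls numbered 0 with edgeR, 700 with DESeq2 (404 higher in WT, 296 lower), 61 with no filter on low counts (47 and 14) and 2 with the replicate block, and ran from 0 to 45 with 1 library left out, where 45 came without WT replicate 2. At an unadjusted p under 0.05, edgeR held 2199 genes. DESeq2 called 4 signalling partners where edgeR called 0. With library totals alone, which moved the median of all genes from 0.01 to -0.08, Efnb1 turned to -0.077 and Efna2 to -0.018. Efna3 turned to 0.016 with the replicate block and to 0.0099 with the crossed pairing. With 1 library left out, the fold change ran from -0.20 to 0.18 for Efnb1, from -0.48 to 0.024 for Ephb3, from -0.45 to 0.38 for Efna1, from -0.10 to 0.27 for Efna2 and, in the 2 of 4 such fits where it passed the filter, from -0.51 to 0.16 for Efna3. The cause was not tested. The lone library of a group was then assumed to vary like the other group. Deviations of same-numbered libraries correlated at -0.37, and the labels give no pairing of the mice. The crossed pairing called 0 genes. Of 421 alternative values, 392 kept their direction and side of the threshold or moved less than the spread.

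The groups hold 2 mice each and differ by strain and not by Qa-2 alone. The least abundant member, Epha4, had 134 to 177 counts a library, and the effect of depth on the calls was not tested.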
